A study of Homo sapiens with 5 samples.

Results

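Proteasome genes were followed in MDA-MB-231 cells exposed to SAHA, on 2 arrays, against cells given the vehicle DMSO, on 3 arrays. MDA-MB-231 is an established human breast cancer line of mesenchymal appearance without oestrogen receptor, and SAHA (suberoylanilide hydroxamic acid, vorinostat) inhibits the histone deacetylases that take acetyl groups off histones and other proteins. SAHA stood at 2 uM, and per the labels both treatments lasted 30 h. The extraction notes speak instead of lysis 3 days after a transfection, which no other label describes, so the exposure is given as the treatment and sample labels state it and a further manipulation shared by all samples cannot be told from them. The labels do not say whether replicates were separate cultures, so p-values measure only how these arrays differ within a group, which can be technical. Members were all genes whose symbol begins with PSMA, PSMB, PSMC, PSMD or PSME, read from probe sets (groups of short probes for the same transcript) that the array annotation gives to 1 gene, with pseudogenes left out and the brightest probe set standing for each gene. The rule found 44 of the 19775 genes tested. Of these, 30 encode constitutive subunits of the proteasome or its activators, 4 encode interferon-inducible subunits (PSMB8, PSMB9, PSMB10 and PSME1) and 3 encode assembly chaperones. The other 7 share the prefix but encode no subunit. The fifth gene set apart as inducible, PSME2, and the alpha subunit PSMA6 had only probe sets annotated to several genes and were not used. PSMB11, PSMC5, PSMD7 and PSMD13 were not analysed here.

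The proteasome is the protease that degrades proteins tagged with ubiquitin. Its barrel-shaped core particle has outer rings of alpha subunits and inner rings of beta subunits, of which PSMB5, PSMB6 and PSMB7 carry the protease sites, and a regulatory particle of ATPases and other subunits binds, unfolds and feeds in the substrate. In immune cells and in cells exposed to interferon, PSMB8, PSMB9 and PSMB10 take the places of PSMB5, PSMB6 and PSMB7 to form the immunoproteasome, and PSME1 and PSME2 form the PA28 activator; these changes favour peptides for presentation on MHC class I.

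Promoters of the 4 measured inducible subunits are shown because interferon acts on such genes through the interferon-stimulated response element (ISRE), which binds IRF factors, and the gamma-activated site (GAS). Each stretch runs from 150 bases before to 30 bases after an annotated transcription start in RefSeq (GRCh38.p14) and reads 5′ to 3′ on the gene's own strand. Capitals mark matches, on either strand, to GAAA, any 2 bases and GAAA again for the ISRE, or to TTCNNNGAA for the GAS. The constitutive subunit PSMB4 is added as a constitutive gene with an ISRE match. PSMB10 lies at chr16:67936821-67937000 on the minus strand, PSMB8 at chr6:32844018-32844197 on the minus strand, PSMB9 at chr6:32854042-32854221 on the plus strand, PSME1 at chr14:24136044-24136223 on the plus strand and PSMB4 at chr1:151399423-151399602 on the plus strand.
PSMB10: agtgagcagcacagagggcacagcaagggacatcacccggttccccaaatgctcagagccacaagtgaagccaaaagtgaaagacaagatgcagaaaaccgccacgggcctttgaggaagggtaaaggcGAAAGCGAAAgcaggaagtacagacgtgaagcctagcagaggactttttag
PSMB8: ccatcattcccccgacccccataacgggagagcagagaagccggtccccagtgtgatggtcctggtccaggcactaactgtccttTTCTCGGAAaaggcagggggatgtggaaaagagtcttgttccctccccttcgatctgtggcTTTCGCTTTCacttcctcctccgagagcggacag
PSMB9: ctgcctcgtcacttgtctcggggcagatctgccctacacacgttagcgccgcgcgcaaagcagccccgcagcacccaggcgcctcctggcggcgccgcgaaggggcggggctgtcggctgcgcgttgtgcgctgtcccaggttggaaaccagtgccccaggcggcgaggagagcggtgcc
PSME1: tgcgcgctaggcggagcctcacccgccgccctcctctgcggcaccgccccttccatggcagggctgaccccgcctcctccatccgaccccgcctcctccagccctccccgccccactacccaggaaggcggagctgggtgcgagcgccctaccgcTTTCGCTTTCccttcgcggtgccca
PSMB4: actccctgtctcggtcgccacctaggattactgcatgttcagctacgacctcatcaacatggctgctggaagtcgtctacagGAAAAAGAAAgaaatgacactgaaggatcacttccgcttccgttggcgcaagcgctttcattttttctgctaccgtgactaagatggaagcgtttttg
Counting from 0 at the annotated start, the ISRE match of PSMB10 began at position -21, that of PSMB8 at -4 and that of PSME1 at 5. PSMB8 also had a GAS match at -65, which did not overlap the ISRE match. A second annotated start of PSMB8 had neither match, and the window of PSMB9 had none. In windows of 300 bases, from 250 before to 50 after the start, an ISRE match was found for 3 of the 4 inducible genes and for 2 of the 25 constitutive ones with a window, PSMB4 and PSMA4, against 3.57% of all 35116 promoter windows. GAS matches were found for 1 of the 4 and 7 of the 25, against 7.66% of all windows. The CCAAT box (CCAAT), bound by the factor NF-Y, was found for 14 of the 25 constitutive genes, 7 of the 9 called lower with SAHA and 7 of the 16 others, against 34.6% of all windows. The GC box (GGGCGG), bound by SP1, was found for 16 of the 25, 5 of the 9 called lower and 11 of the 16 others, against 45% of all windows. No window was matched for PSMA7, PSMB1, PSMB6, PSMB7 or PSMD4. A gene was counted when any of its windows had the match, whereas the background counts single windows. Genes with several annotated starts thus had more chances of a match, and the shares are not strictly comparable. A match describes the letters and is not evidence of binding.

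The arrays were separated by treatment. Their overall levels were alike, but the processing of the deposited values (RMA) gives all arrays the same distribution, so this likeness was set in advance. Median intensity was 88.8 to 91.2 in SAHA and 90 to 90.3 in DMSO, and Pearson's r across the 19775 genes was 0.997 to 0.999 within groups and 0.979 to 0.980 between them (genes are not independent replicates). DMSO 1 differed from the rest in the 3' minus 5' reading of the actin control, 3.29 log2 units against 2.04 to 2.22 on the other arrays. Of the markers of a mesenchymal line, VIM, CD44, AXL, CAV1 and MSN were bright, but SPARC was dim (6.14 and 6.16 in SAHA, against 6.13, 6.14 and 6.14 in DMSO). AXL and MSN were called lower (log2 folds -0.33 and -0.37, limma adjusted p = 0.0193 and 0.0116). Of the 5 markers meant to be dim, ESR1 and PGR stayed at or below 7.04 log2 units. CDH1 (E-cadherin) was dim but rose 3.11-fold, with 6.49 and 6.12 in SAHA, against 4.75, 4.48 and 4.78 in DMSO (limma adjusted p = 0.00259). GATA3 read 9.16 and 9.15 in SAHA, against 9.34, 9.49 and 9.42 in DMSO, and EPCAM 9.68 and 9.44 in SAHA, against 10.42, 10.22 and 10.19 in DMSO. GATA3 and EPCAM were thus not dim, at percentiles 70.4 and 77.8 of level among all genes. Both were called lower (log2 folds -0.26 and -0.72, limma adjusted p = 0.0311 and 0.0102). Leukocytes carry the immunoproteasome constitutively; the 7 of their 8 listed markers that were measured lay between 3.41 and 7.82 log2 units on every array, with a summed intensity of 579 to 597 in SAHA and 509 to 551 in DMSO. Among them CD14 was called higher (log2 fold 0.87, limma adjusted p = 0.00562), PTPRC and MS4A1 were called lower (-0.34 and -0.32; limma adjusted p = 0.0176 and 0.00654) and the other 4 were not called. The 4 fibroblast markers summed to 1192 to 1201 in SAHA and 1317 to 1351 in DMSO. The part of other cells in the results was not tested.

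PSMB10 fell steeply, PSMB8 fell modestly, and PSMB9 and PSME1 did not pass the test. On the log2 intensity scale PSMB10 read 7.10 and 7.24 on the SAHA arrays, against 9.42, 9.64 and 9.72 on the DMSO arrays. The lowest DMSO array lay far above the highest SAHA array. Here and below, bulk RNA cannot tell fewer cells with a transcript from less of it per cell. PSMB10 fell 5.35-fold (log2 fold -2.42 ± 0.11, SE; limma adjusted p = 0.000611), which placed PSMB10 as number 9 from the bottom among the 19775 genes. PSMB10 has 1 probe set, and its call held with each array left out (log2 fold -2.50 to -2.35, limma adjusted p = 0.00663 to 0.0185).

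Like PSMB10 and PSME1, PSMB8 has an ISRE match in the promoter stretch printed above. A link between such matches and the changes was not tested. PSMB8 fell 1.41-fold. It read 10.72 and 10.90 on the SAHA arrays, against 11.33, 11.18 and 11.40 on the DMSO arrays, without overlap. Its log2 fold was -0.50 ± 0.09 (SE; limma adjusted p = 0.0178). The call remained without DMSO 2 (limma adjusted p = 0.0329) but ended without DMSO 1, DMSO 3, SAHA 1 or SAHA 2 (limma adjusted p = 0.0757, 0.0692, 0.112 and 0.0568), while the log2 fold stayed between -0.58 and -0.41. The probe set of PSMB8 is of the kind whose name ends in _s_at or _x_at, which can share sequence between transcripts or genes.

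For PSMB9 the groups lay close together. It read 10.95 and 11.09 on the SAHA arrays, against 11.11, 11.11 and 11.23 on the DMSO arrays, a log2 fold of -0.13 (95% interval -0.31 to 0.05; limma adjusted p = 0.244). The SAHA arrays lay just below the DMSO arrays. Its interval overlaps that of PSMB8 (-0.74 to -0.25) and lies wholly above that of PSMB10 (-2.70 to -2.14); differences between these genes were not tested.

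PSME1, the alpha subunit of the PA28 activator, has an ISRE match and was not called. It read 13.05 and 13.06 on the SAHA arrays, against 12.99, 12.90 and 12.97 on the DMSO arrays, a log2 fold of 0.10 (95% interval -0.02 to 0.22; limma adjusted p = 0.182). The SAHA arrays were slightly above the DMSO arrays. With arrays centred on the spiked-in polyadenylated control RNAs the value turned to -0.27 and was called lower (limma adjusted p = 0.0462), as described further down for the constitutive subunits.

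**Figure D1:**
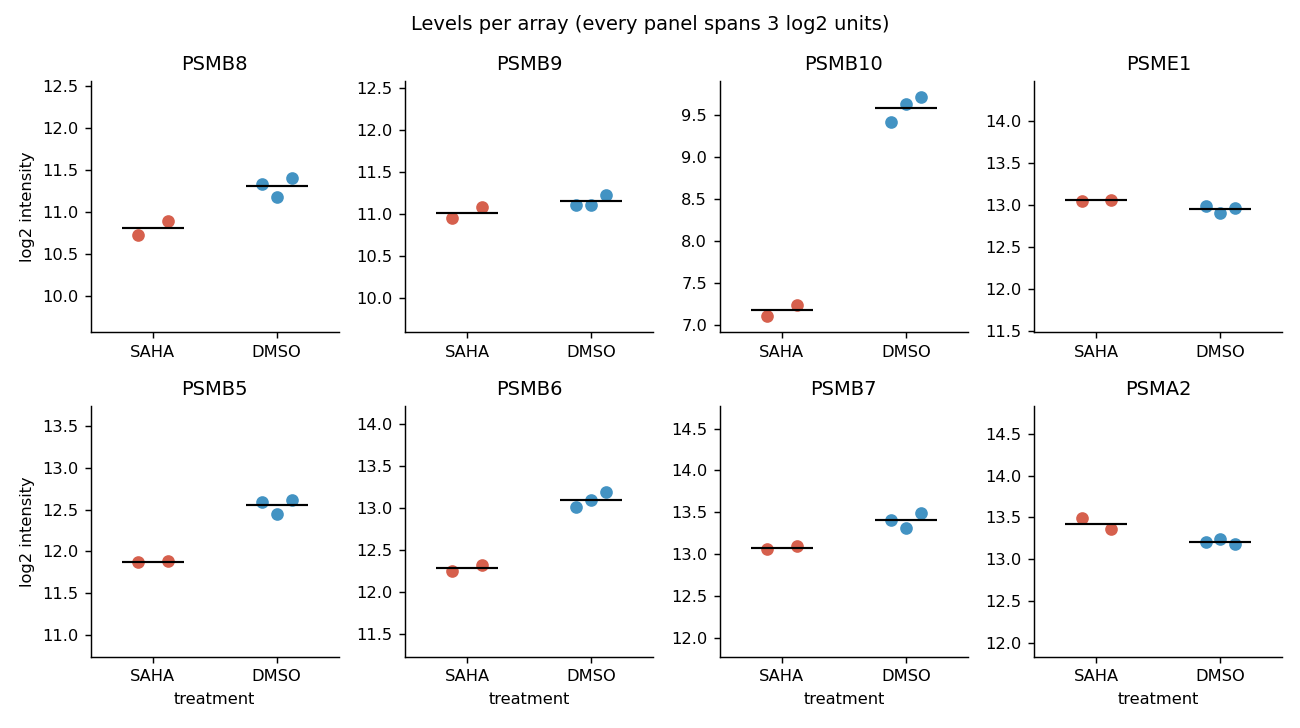
Log2 intensity on each array for the 4 measured inducible subunits, the 3 constitutive catalytic subunits and PSMA2, with SAHA on the left and DMSO on the right of each panel. Points are arrays, bars are group means and every panel spans the same number of log2 units; PSMB10 has by far the widest gap, with means of 7.17 in SAHA and 9.59 in DMSO.

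The constitutive catalytic subunits that these replace fell as well. PSMB6, the caspase-like subunit whose place PSMB9 takes, read 12.25 and 12.32 on the SAHA arrays, against 13.01, 13.10 and 13.20 on the DMSO arrays. It fell 1.76-fold (log2 fold -0.81 ± 0.07, SE; limma adjusted p = 0.00208). PSMB5, the chymotrypsin-like subunit whose place PSMB8 takes, read 11.87 and 11.88 on the SAHA arrays, against 12.59, 12.45 and 12.61 on the DMSO arrays, and fell 1.60-fold (log2 fold -0.68 ± 0.06, SE; limma adjusted p = 0.00267). Neither gene's groups overlapped, and both calls held with each array left out. PSMB7, the trypsin-like subunit whose place PSMB10 takes, fell less: it read 13.06 and 13.09 on the SAHA arrays, against 13.41, 13.31 and 13.49 on the DMSO arrays (log2 fold -0.33 ± 0.06, SE; limma adjusted p = 0.0208). Its call ended without DMSO 1, DMSO 3, SAHA 1 or SAHA 2 (limma adjusted p = 0.0767, 0.0535, 0.118 and 0.0882) and with its probe sets averaged (log2 fold -0.26, limma adjusted p = 0.0702).

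For the 3 pairs of catalytic subunits, the log2 fold of the inducible subunit minus that of its constitutive counterpart was negative in 1 and positive in 2. The PSMB10 reading minus the PSMB7 reading was -5.95 and -5.85 log2 units on the SAHA arrays, against -3.99, -3.68 and -3.77 on the DMSO arrays. The difference of log2 folds, PSMB10 minus PSMB7, was -2.09. For PSMB9 minus PSMB6 the readings were -1.30 and -1.24 in SAHA, against -1.89, -1.99 and -1.97 in DMSO, a difference of log2 folds of 0.68. For PSMB8 minus PSMB5 they were -1.15 and -0.99 in SAHA, against -1.27, -1.27 and -1.21 in DMSO, a difference of log2 folds of 0.18, which was 0.099 without SAHA 2 and 0.26 without SAHA 1. In each pair the groups did not overlap, and the exact permutation test over arrays (two-sided) gave p = 0.1 for each, adjusted p = 0.1 over the 3 pairs, which is the smallest value that 10 arrangements allow. Only changes of such readings can be compared, since the 2 probe sets of a pair differ in brightness.

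Of the 30 measured constitutive subunits, PSMB5, PSMB6 and PSMB7 included, 12 were called lower and 1 higher (limma, Benjamini-Hochberg adjusted p under 0.05 over all genes), where 29.6% of all genes were called, 15.6% lower and 14% higher. As shares, 40% of the constitutive subunits were lower and 3.33% higher. Bright genes are called more often, and among the 4374 genes with a mean log2 level of at least 10, a limit chosen after the values were seen, 26.5% were called lower and 23.6% higher. Without the 3 catalytic subunits, 9 of 27 (33.3%) were called lower. Of the 30 subunits only PSMA8, made mainly in testis, was dim (4.29 and 4.10 in SAHA, against 4.29, 4.34 and 4.30 in DMSO). The 12 that fell did so by 1.15-fold to 1.76-fold. The median log2 fold of the 30 was -0.12, that of the 4 inducible subunits -0.31 and that of all genes -0.03.

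Set against these 30, most inducible subunits lay within the constitutive range. Of the 4, 2 were called lower and 0 higher, where 15.6% of all genes were called lower and 14% higher. Among genes with a mean log2 level of at least 10 these shares were 26.5% and 23.6%, but PSMB10 was dimmer than that. The log2 folds of 3 of the 4 (PSMB8, PSMB9 and PSME1) lay inside the constitutive range of -0.81 to 0.25. PSMB10 alone lay outside it. Both SAHA arrays were below all DMSO arrays for 3 of the 4 inducible and 16 of the 30 constitutive subunits, where 26% of all genes showed that arrangement. They were above for 1 of the 4 and 3 of the 30, against 22.1% of all genes.

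**Figure D2:**
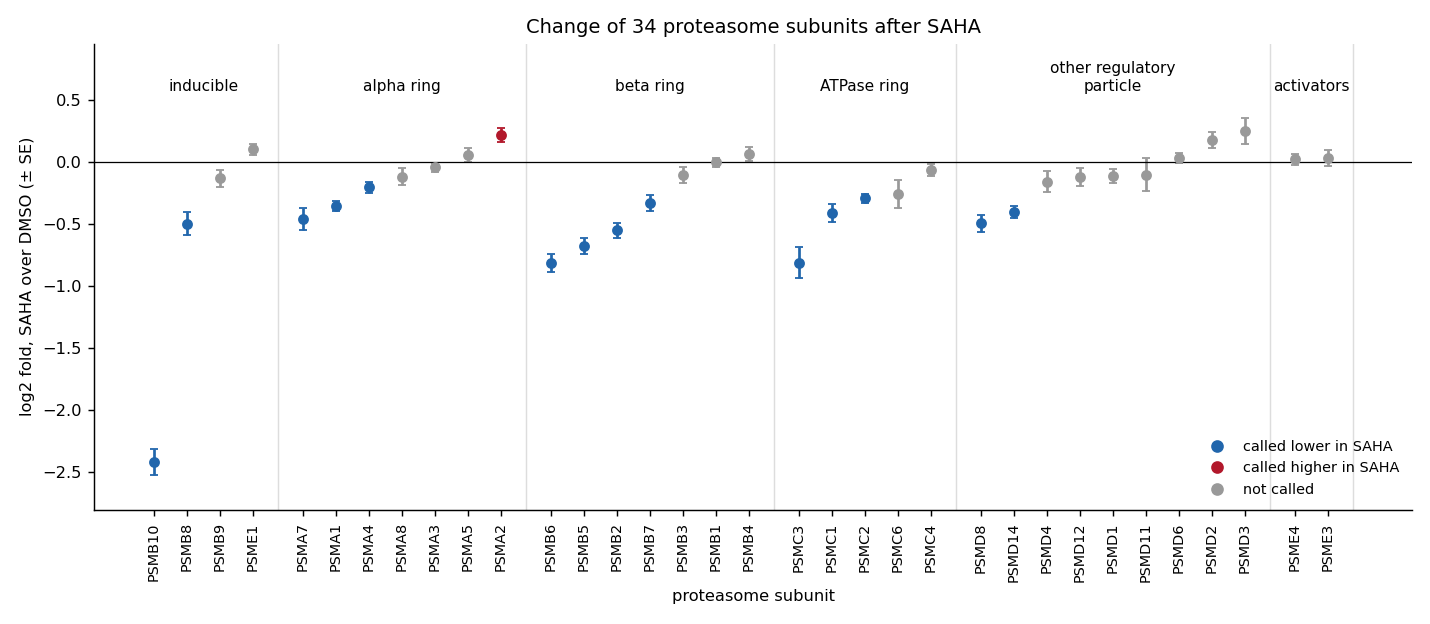
Log2 fold of each of the 34 measured subunits, SAHA over DMSO, with its standard error, grouped by place in the particle and coloured by the limma call at adjusted p under 0.05. PSMB10 stands apart at -2.42, and the other 33 subunits lie between -0.81 and 0.25.

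Of the 7 measured alpha ring subunits, which gate the entry to the core, 3 fell and 1 rose, beside 15.6% of all genes lower and 14% higher. PSMA7 fell 1.37-fold (log2 fold -0.46 ± 0.09, SE; limma adjusted p = 0.0177), and its call remained only without SAHA 2 (0.0492, against 0.0524 to 0.10 without each of the others). PSMA1 (-0.35) and PSMA4 (-0.20) also fell. All 3 probe sets of PSMA1 were called lower in a fit over the 41091 probe sets with 1 gene, with log2 folds of -0.35, -0.39 and -0.47, where 11.1% of probe sets were called lower. All 3 are of the kind that can share sequence, so they may not be independent readings of PSMA1. PSMA3 was not called (log2 fold -0.04). PSMA4 remained called only without SAHA 1, and limma's adjusted p was 0.0704 to 0.0912 without each of the others.

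PSMA2 was the constitutive subunit called higher. It read 13.49 and 13.36 on the SAHA arrays, against 13.20, 13.24 and 13.18 on the DMSO arrays, and rose 1.16-fold (log2 fold 0.22 ± 0.05, SE; limma adjusted p = 0.0437). The groups did not overlap, but the call remained only without SAHA 2 (limma adjusted p = 0.0293, against 0.0764 to 0.135 without each of the others), and the log2 fold turned to -0.15 with centring on the polyadenylated controls. A dimmer probe set of PSMA2 gave a larger rise, with a log2 fold of 0.83 (limma adjusted p = 0.00399 over probe sets), while its brightest one missed the threshold in that fit (0.0558). PSMA5 showed a wider split: its brightest probe set gave 0.06 and a far dimmer one 1.09 (limma adjusted p = 0.00427 over probe sets). That dimmer probe set read 6.81 on average, and the brightest one 12.69.

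Of the 4 beta ring subunits without a protease site, PSMB2 fell 1.47-fold, with 12.29 and 12.37 on the SAHA arrays, against 12.94, 12.81 and 12.90 on the DMSO arrays (log2 fold -0.55 ± 0.06, SE; limma adjusted p = 0.00358). Its other 3 probe sets, all dimmer, did not pass (log2 folds 0.14, -0.19 and -0.08), and with all averaged PSMB2 gave -0.17 (limma adjusted p = 0.0273). PSMB1 (-0.0011, 95% interval -0.10 to 0.10), PSMB3 (-0.11, -0.28 to 0.06) and PSMB4 (0.06, -0.08 to 0.21) were not called. PSMB4, the constitutive gene whose ISRE match is printed above, read 13.78 and 13.84 in SAHA, against 13.74, 13.69 and 13.82 in DMSO, and the groups overlapped. A dimmer probe set of PSMB4 gave a log2 fold of 0.09. Another gave -0.61, with 11.35 and 11.27 in SAHA, against 11.68, 12.18 and 11.90 in DMSO, without overlap. Neither was called in the fit over probe sets (limma adjusted p = 0.329 and 0.0594).

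In the ring of ATPases that unfolds substrates, 3 of 5 measured subunits fell, where 15.6% of all genes and 26.5% of bright ones were called lower. PSMC3 read 10.44 and 10.61 on the SAHA arrays, against 11.13, 11.41 and 11.47 on the DMSO arrays, and fell 1.75-fold (log2 fold -0.81 ± 0.12, SE; limma adjusted p = 0.00989). Its call ended without DMSO 2, SAHA 1 or SAHA 2 (limma adjusted p = 0.0546, 0.0924 and 0.059). PSMC1 fell 1.33-fold (log2 fold -0.41 ± 0.08, SE; limma adjusted p = 0.0172), a call lost without DMSO 1, DMSO 3, SAHA 1 or SAHA 2 (0.0645, 0.0767, 0.114 and 0.0709). PSMC2 fell by 0.29 on the log2 scale (limma adjusted p = 0.00565) and kept its call with each array left out, but gave -0.02 with its 3 probe sets averaged and -0.05 without shared-sequence probe sets, neither called (limma adjusted p = 0.833 and 0.64). PSMC6 gave -0.26 and PSMC4 -0.07, and neither was called.

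Of the other 9 measured regulatory particle subunits, 2 fell (22.2%), a share below the 26.5% of bright genes called lower. PSMD14, the deubiquitinase that removes the ubiquitin chain from the substrate, read 12.78 on both SAHA arrays, against 13.23, 13.14 and 13.18 on the DMSO arrays. It fell 1.32-fold (log2 fold -0.40 ± 0.05, SE; limma adjusted p = 0.00419) and was called with each array left out. PSMD8, a subunit of the lid, fell 1.41-fold (log2 fold -0.49 ± 0.07, SE; limma adjusted p = 0.00789), with the call lost without SAHA 1 (0.0565). The ubiquitin receptor PSMD4 (-0.16), the scaffold subunits PSMD1 (-0.12) and PSMD2 (0.18), and the lid subunits PSMD3 (0.25), PSMD6 (0.03), PSMD11 (-0.10) and PSMD12 (-0.12) were not called (limma adjusted p = 0.117 to 0.612). PSMD3 and PSMD2 read higher on both SAHA arrays than on all DMSO arrays.

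Neither of the other activators of the core particle passed the test. PSME3 (PA28 gamma, the nuclear relative of PSME1) read 10.56 and 10.56 on the SAHA arrays, against 10.56, 10.42 and 10.60 on the DMSO arrays (log2 fold 0.03, 95% interval -0.14 to 0.21; limma adjusted p = 0.755). PSME4 (PA200, an activator known from sperm and DNA repair) read 11.08 and 11.13 in SAHA, against 11.11, 11.04 and 11.11 in DMSO (log2 fold 0.02, 95% interval -0.10 to 0.14; limma adjusted p = 0.764). For both the groups overlapped, and both turned negative and were called lower with centring on the polyadenylated controls (log2 folds -0.34 and -0.35; limma adjusted p = 0.0134 and 0.0106).

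How many subunits count as lower depended on the scaling and on the probe sets. The polyadenylated control RNAs read higher in SAHA than in DMSO, by a median of 0.39 log2 units over 24 probe sets, and with each array centred on them the median of all genes lay at -0.40. In that setting 27 of the 30 constitutive and 4 of the 4 inducible subunits were called lower, among 73.6% of all genes. The part of this offset in the counts was not tested further. Quantile normalization run again and centring on the median gene or on ribosomal protein genes gave 13, 12 and 12 constitutive subunits called lower. Of all genes, 17.2%, 16.3% and 17.5% were called lower in these settings. Without shared-sequence probe sets, 23 constitutive subunits were measured and 6 were called lower, among 12.3% of all genes. These 6 were PSMA4, PSMB5, PSMB6, PSMB7, PSMD8 and PSMD14. With 1 DMSO array left out, 8 to 9 constitutive and 1 to 2 inducible subunits were called lower, among 10% to 11.9% of all genes. Without DMSO 1, whose actin control stood apart, these counts were 8 and 1, among 11.9% of all genes.

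Probe sets of the same subunit often differed in sign but were not called in opposite directions. The 34 subunits had 63 probe sets, and 17 subunits had more than 1. In the fit over probe sets, 16 were called lower and 3 higher, where 11.1% and 11% of all probe sets with 1 gene were called, and 0 subunits had calls in both directions. Of the 17 subunits, 10 had probe sets all of 1 sign. Of the 29 dimmer probe sets, however, 2 were called lower and 3 higher. The 2 lower ones belong to PSMA1, and the 3 higher ones to PSMA2, PSMA5 and PSME4 (log2 fold 0.23 for PSME4). The table has no detection calls to tell which dim probe sets read above background.

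**Figure D3:**
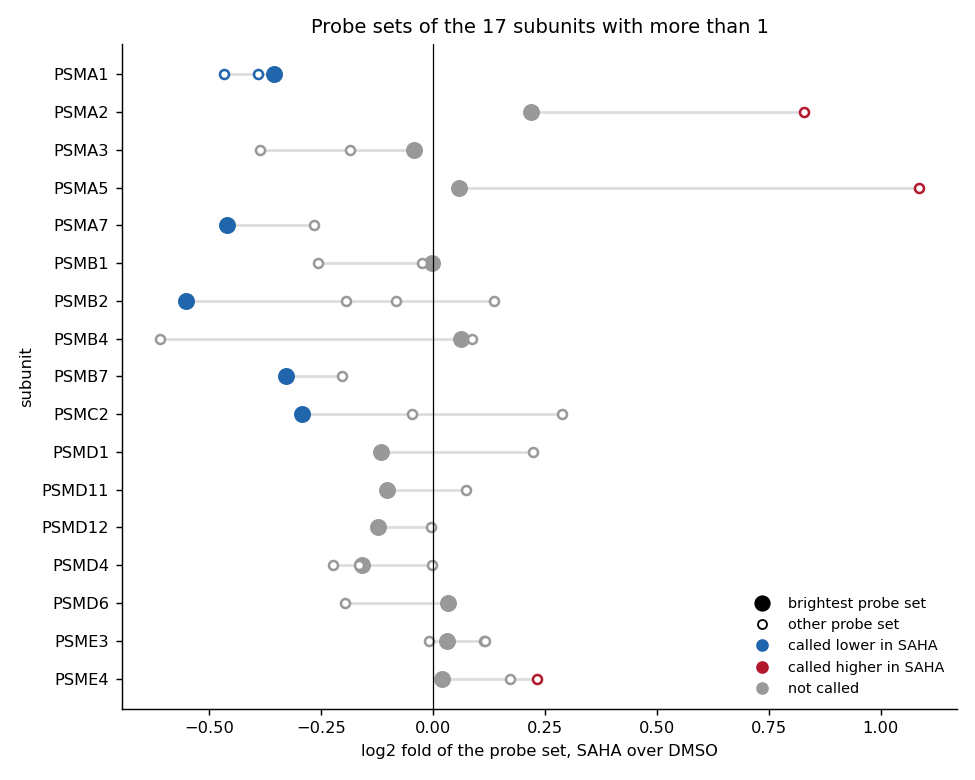
Log2 fold of every probe set of the 17 subunits with more than 1, SAHA over DMSO, with the brightest probe set as a large filled point and the others as small open points, coloured by the call in the fit over probe sets. PSMA5 has the widest spread, 0.06 and 1.09. The 3 probe sets of PSMA1, all of the shared-sequence kind, lie together between -0.47 and -0.35.

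Of the assembly chaperones, which bring subunits together and then leave, some of those for the regulatory particle fell. PSMD5 read 10.32 and 10.18 on the SAHA arrays, against 11.16, 11.02 and 11.01 on the DMSO arrays, and fell 1.76-fold (log2 fold -0.82 ± 0.08, SE; limma adjusted p = 0.00252; -0.39 with its probe sets averaged). PSMD9 fell by 0.35 (limma adjusted p = 0.0133), a call lost without DMSO 1, SAHA 1 or SAHA 2 (0.0552, 0.0797 and 0.0756), and PSMD10 was 0.04. Over all 9 chaperones 4 were called lower and 0 higher, with a median log2 fold of -0.29, where 15.6% of all genes and 26.5% of those with a mean log2 level of at least 10 were called lower. The other 2 were the core particle chaperones PSMG1 (-0.53 ± 0.09, SE; limma adjusted p = 0.0154) and PSMG4 (-0.48 ± 0.11, SE; limma adjusted p = 0.0321). PSMG1 lost its call without DMSO 1, DMSO 2 or DMSO 3 (up to 0.0694), PSMG4 without any array but SAHA 1 (up to 0.112), and PSMG4 gave -0.02 with its probe sets averaged. POMP, which brings the beta subunits into the ring, was 0.09 (95% interval -0.09 to 0.27; limma adjusted p = 0.378).

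Genes listed as associated with the particle, its inhibitor included, were mostly not called. Of 10, 1 was lower and 0 higher (15.6% and 14% of all genes), with a median log2 fold of 0.01. That gene was ECPAS, an adaptor of the particle, at -0.86 ± 0.17 (SE; limma adjusted p = 0.02), with the call lost without DMSO 1, DMSO 2 or DMSO 3 (limma adjusted p up to 0.0933). The inhibitor PSMF1 was 0.11, the ubiquitin receptor ADRM1 -0.19 and the small lid subunit SEM1 0.08. ADRM1 and SEM1 lack the prefix and so were not counted among the subunits above. Of 7 measured genes of ubiquitin supply and shuttling, the activating enzyme UBA1 rose (0.30; limma adjusted p = 0.025) and UBQLN4 fell (-0.29; limma adjusted p = 0.0152), but with their probe sets averaged they gave 0.19 and -0.03 and were not called. UBA1 was called only without SAHA 1 among the fits with an array left out, and UBQLN4 only without DMSO 2 or DMSO 3 (limma adjusted p up to 0.0849 and 0.0786).

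NFE2L1 encodes the transcription factor that raises proteasome genes when proteasome activity is short, and NGLY1 the enzyme that removes sugars from it on its way to activity. NFE2L1 read 10.68 and 10.74 on the SAHA arrays, against 11.26, 11.22 and 11.40 on the DMSO arrays, and fell 1.50-fold (log2 fold -0.58 ± 0.07, SE; limma adjusted p = 0.00494; 0.0542 without SAHA 1). The probe set that stood for NFE2L1 is of the shared-sequence kind. NGLY1 fell 1.45-fold (log2 fold -0.54 ± 0.06, SE; limma adjusted p = 0.00504), but gave -0.03 without shared-sequence probe sets. NFE2L2, a relative of NFE2L1 that drives antioxidant genes, rose by 0.41 (limma adjusted p = 0.0247). Among the fits with an array left out it was called only without SAHA 2, and its log2 fold ranged from 0.29 to 0.52. The antioxidant response element that NFE2L1 and NFE2L2 bind was searched as TGACNNNGC on either strand. Counted per gene over any of its promoter windows, it was found for 7 of the 25 constitutive genes and 2 of the 4 inducible ones. Of all single windows, 13.3% had it. Over the 10 measured genes of this pathway 2 fell and 2 rose, with a median of -0.06; 20% in each direction stands beside 15.6% lower and 14% higher of all genes.

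Of 13 measured factors of interferon signalling, 3 fell and 3 rose, with a median log2 fold of -0.18. That is 23.1% in each direction, where 15.6% of all genes were called lower and 14% higher. Among genes with a mean log2 level of at least 10 the shares were 26.5% and 23.6%, but most of these factors were dimmer than that. SOCS1, which restrains JAK kinases, read 6.01 and 5.84 on the SAHA arrays, against 7.19, 7.24 and 7.39 on the DMSO arrays, and fell 2.55-fold (log2 fold -1.35 ± 0.09, SE; limma adjusted p = 0.00113). IRF9, a DNA-binding factor of the interferon response, fell 1.83-fold (log2 fold -0.87 ± 0.07, SE; limma adjusted p = 0.00196). IRF1, which drives the inducible subunits through ISRE sites, rose 1.29-fold (log2 fold 0.37 ± 0.07, SE; limma adjusted p = 0.0164), with 9.39 and 9.49 in SAHA, against 8.99, 9.07 and 9.15 in DMSO. Its call ended without DMSO 2, SAHA 1 or SAHA 2 (limma adjusted p up to 0.0882), and its log2 fold was -0.001 with centring on the polyadenylated controls. STAT3 rose by 0.88 (limma adjusted p = 0.00989; lost without DMSO 1 or DMSO 3, up to 0.0599), and by 0.22 with its probe sets averaged, which was not called. NLRC5, which activates MHC class I genes and PSMB9, was -0.48 (95% interval -0.81 to -0.14; limma adjusted p = 0.053).

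Partners of the immunoproteasome in antigen processing were largely not called. Of 14 measured, 3 fell and 0 rose, with a median log2 fold of -0.03; 21.4% lower lies between the 15.6% of all genes and the 26.5% of bright ones. The peptide-trimming enzyme ERAP2 fell 1.89-fold (log2 fold -0.92 ± 0.12, SE; limma adjusted p = 0.0061; 0.0517 without SAHA 2), and the chaperone CANX fell by 0.29 (limma adjusted p = 0.0122; up to 0.0547 without DMSO 2 or DMSO 3). TAP1 and TAP2, the peptide transporter, lie beside PSMB8 and PSMB9 in the MHC region. TAP1 was 0.17 (95% interval -0.01 to 0.35; limma adjusted p = 0.16) and TAP2 -0.21 (limma adjusted p = 0.0486), a call that ended with each array left out (0.0735 to 0.133).

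**Figure D4:**
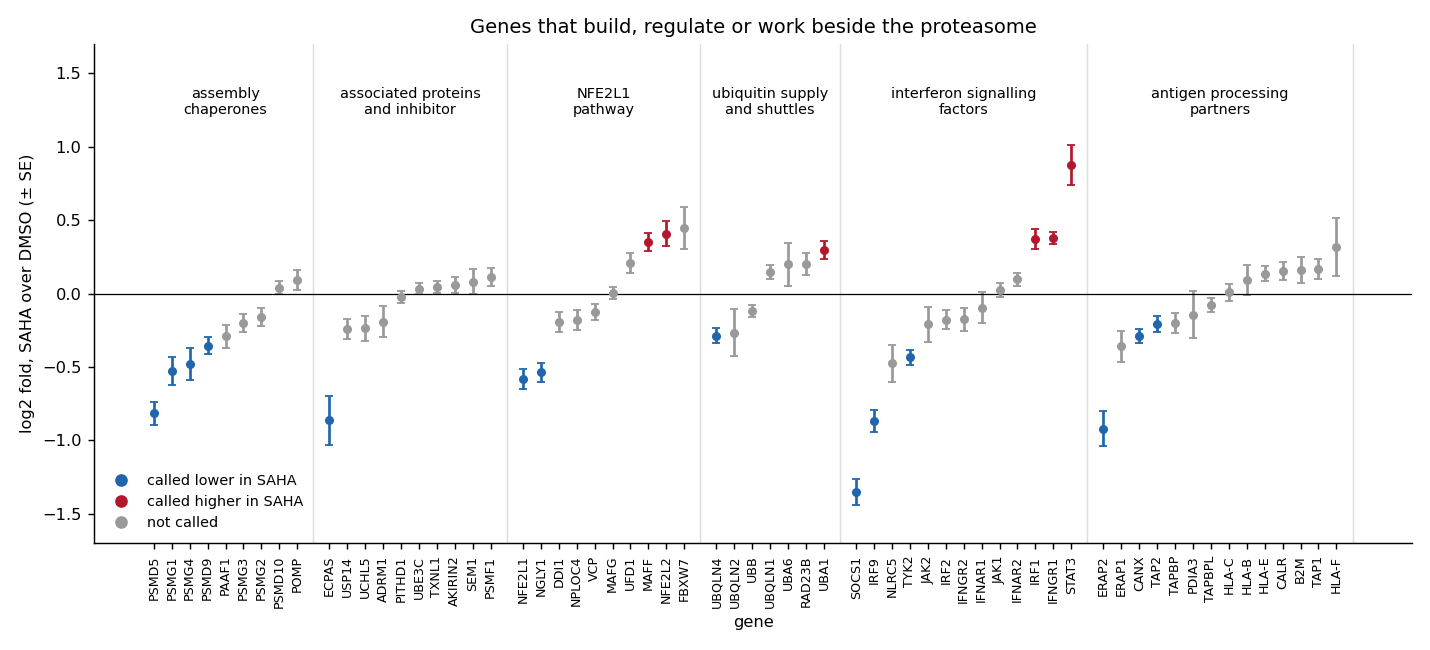
Log2 fold, SAHA over DMSO, with its standard error, of the measured genes of 6 lists around the proteasome, coloured by the limma call at adjusted p under 0.05. Assembly chaperones lie mostly below 0, with PSMD5 at -0.82, and interferon signalling factors spread from SOCS1 at -1.35 to STAT3 at 0.88.

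Of the 7 genes that match the prefix without being subunits, 3 fell, beside 15.6% of all genes. PSMC3IP, a cofactor of the meiotic recombinases, read 9.13 and 9.15 on the SAHA arrays, against 9.99, 9.91 and 10.05 on the DMSO arrays, and fell 1.79-fold (log2 fold -0.84 ± 0.05, SE; limma adjusted p = 0.00112). PSMB8-AS1, an RNA transcribed opposite to PSMB8, fell 1.66-fold (log2 fold -0.73 ± 0.06, SE; limma adjusted p = 0.00213), with 8.70 and 8.61 in SAHA, against 9.47, 9.33 and 9.35 in DMSO. A dimmer probe set of PSMB8-AS1 gave -0.15 and was not called. The sources used here do not state the strand its probes read, so PSMB8-AS1 and PSMB8 may not be fully separated. PSMD6-AS2 fell by 0.39 (limma adjusted p = 0.0206), a call that remained only without DMSO 3 (up to 0.109 otherwise). PSMA3-AS1 (0.04), PSME3IP1 (-0.04), PSMD7-DT (-0.03) and PSMD14-DT (-0.11) were not called.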

How the data were processed

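Total RNA from 2 SAHA-treated and 3 DMSO-treated samples was measured on single-colour oligonucleotide arrays, 1 per sample. Per the submitters' processing notes, the authors made the deposited intensity values with RMA in R 2.12. RMA gives all arrays the same distribution, so a change of all transcripts in 1 direction cannot be seen; the values show that the scale is linear. The chip definition is not given in the sources used here.

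Log2 was taken, and of 54675 probe sets 41091 had 1 gene in the annotation; 1801 with several genes, 11721 with none given and 62 controls were left out. Genes were tested with limma 3.58.1 in R 4.3.3 (lmFit, eBayes, two-sided, no covariates), with Benjamini-Hochberg adjustment over 19775 genes. The fit had 3 residual and 1.62 prior degrees of freedom. Levels are given as mean or array values on the log2 scale, and intervals are limma's 95% intervals. The number of arrays limits the precision. The script was tested on simulated data. Figures used matplotlib 3.10.9 in Python 3.11.15. Promoter stretches came from RefSeq's table for GRCh38.p14, which held 29 of the 34 measured subunits.

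The members, the gene lists and the rule for named genes were chosen with earlier results of these data known. The rule named the inducible subunits, PSMB5, PSMB6, PSMB7, PSME3, PSME4, PSMD14, the 6 largest called changes in each direction among the other members, all prefix matches that are not subunits, up to 3 called genes of each related list and a panel of 10 genes. Other members were named to account for all of them. The background of bright genes and the promoter motifs were chosen after the values were seen. Alternatives were another variance model, array weights, scaling, the choice of probe set, a filter that drops the dimmest 40% of genes, a threshold of 0.01, each array left out and a replicate block. The deviations of same-numbered arrays correlated weakly, which with 2 SAHA arrays cannot settle whether the numbers pair them.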

Additional observations from a re-analysis of the deposited data

How the results depend on the processing

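Among the 30 constitutive subunits, 12 called lower became 27 with centring on the polyadenylated controls and 3 with a replicate block. Without shared-sequence probe sets 6 of 23 measured were called lower, and with a DMSO array left out 8 to 9 of 30. Of all genes, 15.6% were called lower in the main fit, 73.6% with that centring and 6.65% with the block. The share was 12.3% without shared-sequence probe sets and 10% to 11.9% with a DMSO array left out. At an adjusted p under 0.01, 1773 of the 19775 genes were called lower. The 1 called higher became 2 with probe sets averaged, among 15% of all genes, where the main fit had 14%. That count became 0 with eBayes robust, array weights, quantile normalization again or centring on the median gene, the ribosomal protein genes or the polyadenylated controls. It was also 0 with a replicate block, an adjusted p under 0.01 or a DMSO array left out. At 0.05, 6.38% to 14.8% of all genes were called higher in these settings. Of the inducible subunits, 2 called lower became 4 with centring on the polyadenylated controls and 1 without shared-sequence probe sets (which leave PSMB8 unmeasured), with a replicate block or at 0.01, and 1 to 2 with each array left out.

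The constitutive median log2 fold of -0.12 became -0.18 with quantile normalization again, -0.49 with centring on the polyadenylated controls, -0.068 without shared-sequence probe sets and -0.16 to -0.12 with each array left out. The inducible median of -0.31 became -0.69 with centring on those controls, -0.13 without shared-sequence probe sets and -0.39 to -0.24 with each array left out. The differences between paired catalytic subunits kept their sign in each fit with an array left out and with probe sets averaged, with ranges over the arrays left out of 0.099 to 0.26 for PSMB8 minus PSMB5, 0.65 to 0.71 for PSMB9 minus PSMB6 and -2.18 to -2.02 for PSMB10 minus PSMB7. The replicate block leaves 1 residual degree of freedom. DMSO 3 has no SAHA array of its number, so the block gives the same log2 folds as leaving out DMSO 3. The labels do not say that the numbers pair samples, and the deviations of same-numbered arrays correlated at 0.15 and -0.07. With the block PSMB10, PSMB5, PSMB6 and PSMC3 were called among the subunits. The cause of the other changes was not tested.

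Of 706 values of genes named by the rule under alternatives, 18 changed sign. With centring on the polyadenylated controls these were PSME1 (-0.27), PSME3 (-0.34), PSME4 (-0.35), PSMA2 (-0.15), PSMA3-AS1 (-0.33), UBA1 (-0.074), IRF1 (-0.0013), TAP1 (-0.21), POMP (-0.28), PSMF1 (-0.26) and SEM1 (-0.29). Without DMSO 2 they were PSME3 (-0.020) and PSME4 (-2.1e-05), and without SAHA 2 PSME4 (-0.0056). With each array left out PSME3 ranged from -0.020 to 0.069 and PSME4 from -0.0056 to 0.048. PSMA3-AS1 gave -0.15 with probe sets averaged, -0.0060 with a replicate block or without DMSO 3 and -0.065 without SAHA 1. Among the other members, PSMA5 (-0.31), PSMB4 (-0.31), PSMD2 (-0.20), PSMD3 (-0.12), PSMD6 (-0.34) and PSMD10 (-0.33) turned negative with that centring, PSMB4 (-0.15) and PSMD6 (-0.081) with probe sets averaged, PSMD6 (-0.0079) and PSMD10 (-0.0029) with quantile normalization again and PSMD10 (-0.0024) without SAHA 1. PSMD1 turned positive with probe sets averaged (0.054), PSMD11 without shared-sequence probe sets (0.075) or SAHA 1 (0.063) and PSMB1 without SAHA 2 (0.012). Of the 706 values, 106 lost and 14 gained a call. Without detection calls, values of dim probe sets may rest on background.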
